A study of Mus musculus with 11 samples.

Results

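Basal cells were set against luminal cells, both sorted from mouse mammary outgrowths that carried a hairpin against Ror2 (shROR2). The arrays were chosen by their titles, which name the cell type and the hairpin, and gave 3 basal shROR2 and 2 luminal shROR2 arrays, 5 of the 11 arrays used. The other 6 arrays, 3 basal and 3 luminal, came from outgrowths with a hairpin called shLUC, the control of the study, and are given beside the shROR2 values. The study asked what Ror2, a receptor for non-canonical Wnt ligands, does in each of the epithelial compartments. Both hairpins were delivered by lentivirus to dissociated primary mammary epithelial cells at a high ratio of virus to cells. The infected cells clumped overnight and were injected in a Matrigel mixture, and the resulting outgrowths were separated by flow cytometry on the surface proteins CD24 and CD29. All groups therefore share the infection, the aggregation, the injection and the sort. The RNA was amplified before labelling, and the labels speak of biological triplicates without saying which basal and luminal samples came from the same outgrowth, so p-values measure the spread between arrays. The labels name no strain, age or host for these outgrowths.

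The mammary epithelium is a bilayer. Its outer, basal layer consists largely of myoepithelial cells, which make smooth-muscle proteins, contract in response to oxytocin, lay down the basement membrane and hold most of the gland's stem cell activity in transplants. The inner, luminal layer lines the duct, seals it with tight junctions, senses estrogen, progesterone and prolactin in a subset of its cells, and makes milk in another. Wnt ligands act on this tissue through a beta-catenin branch, which maintains basal stem cells, and through non-canonical receptors such as Ror2, which bind Wnt5a and act on cell shape and polarity.

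Signals are given as log2 of the processed signal relative to the 75th percentile of the array, so that 0 is the signal of a probe at that percentile. Differences are basal minus luminal on that log2 scale, and ± is the standard error of the limma fit, which pooled the spread of all 4 groups. Over features with a mean signal above 0, the median standard deviation was 0.208 in basal shROR2 and 0.089 to 0.108 in the other groups. The pooled error can therefore be too small for features that vary more among basal shROR2 arrays. A call is an adjusted p under 0.05 over all 29430 features tested, of which 14069 were named genes. On the 5 shROR2 arrays the share of probes well above background ran from 52.8% to 54.7%. The 3 basal shROR2 arrays correlated with each other at 0.941 to 0.953 and the 2 luminal shROR2 arrays at 0.983, while each basal array correlated with each luminal array at 0.895 to 0.91. The array labelled basal shROR2 replicate 2 stood apart on the second principal component, which held 10.2% of the variance, at -110.2 against 23.57 and 20.27 for replicates 1 and 3. On that array 478 features lay over 4-fold from both other basal arrays where those were within 2-fold of each other, 1.62% of all features, against 314 for replicate 1 and 379 for replicate 3. Counts without that array are given beside the gene groups where one moved by over 1.5 times.

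Ror2, the gene the hairpin targets, is read by a probe that was well above background on 1 of the 11 arrays only, the array labelled basal shROR2 replicate 1. Its processed signal was 16.8, 3.03 and 6.93 on the basal shROR2 arrays and 3.54 and 8.47 on the luminal shROR2 arrays. On the control arrays it was 11.1, 12.1 and 10.1 in basal shLUC cells and 3.14, 3.44 and 3.48 in luminal shLUC cells. The array with the highest Ror2 signal thus carries a knockdown label, and the ranges of basal and luminal shROR2 arrays overlapped. The log2 difference between basal and luminal shROR2 arrays was 0.42 (exact permutation test over arrays, 2-sided p = 0.8, with 0.1 the smallest p that 10 regroupings allow). The degree of knockdown could not be read at this signal, and directions below are those of the labels.

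Across all features, 3113 were higher and 3609 lower in basal than in luminal shROR2 cells, which is 10.6% and 12.3% of those tested, or 22.8% in either direction. Of the calls, 2149 were at least 2-fold higher and 2124 at least 2-fold lower. The arrays of both groups did not overlap for 19.7% of features in the higher direction and 26% in the lower. Among the 14069 named genes, the kind the lists below hold, 2049 were called higher and 2206 lower, a larger share than over all features. In shLUC outgrowths the same comparison called 13.7% of features higher and 13.3% lower. The median difference over all features was -0.077, so list medians below stand against a background near 0. Without basal shROR2 replicate 2 the counts were 3366 higher and 4183 lower. With only the 5 shROR2 arrays in the fit they were 1604 and 1224, and without luminal shROR2 replicate 1 or 2 the counts of higher features were 2053 and 2060 and those of lower features 1718 and 1910.

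The contractile apparatus of the myoepithelium was higher in basal cells. Of 22 listed genes, 20 passed the filter on dim probes, and 20 of these were called higher, with a median difference of 3.79. Acta2, smooth muscle actin and the usual marker of myoepithelium, read 8.78, 8.80 and 8.86 on the basal arrays and 1.52 and 1.72 on the luminal arrays, a difference of 7.19 ± 0.14 (adjusted p 2.42e-08). The gap between the layers was far wider than the spread within either. The calponin gene Cnn1, which binds actin and restrains myosin, read 6.88, 6.94 and 6.57 in basal against -0.39 and -0.35 in luminal cells and differed by 7.17 ± 0.16. Mylk, the kinase that starts smooth-muscle contraction by phosphorylating myosin light chain, differed by 6.48 ± 0.33 (adjusted p 2.44e-06), with 4.95, 5.18 and 4.91 in basal against -1.24 and -1.69 in luminal cells. Every basal array lay above every luminal array for all 3 of these genes.

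Other members of the list were higher too. The regulatory light chain Myl9 was higher by 6.0, the smooth muscle myosin heavy chain Myh11 by 5.50, the tropomyosin Tpm2 by 5.28 and transgelin, Tagln, by 4.38. Caldesmon, Cald1, was higher by 4.26, filamin A, Flna, by 2.70 and the alpha-actinin Actn1 by 1.97. The essential light chain Myl6, which most cells make, showed the smallest difference of the list, 0.83 ± 0.12 (adjusted p 0.00108). The oxytocin receptor gene Oxtr, through which suckling makes the myoepithelium contract, read 2.44, 2.41 and 2.70 in basal and 0.23 and 0.42 in luminal cells, a difference of 2.19 ± 0.14 (adjusted p 1.05e-05). Actg2, at 5.16, and the skeletal actin Acta1, at 5.61, are near-identical in sequence to Acta2. Whether probes for them share its signal was not tested.

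For some genes no luminal array was well above background. There the difference is given as a bound, at least N-fold, in which the brighter group's mean is divided by the dimmer group's mean of the lowest signal well above background on each array (the probe's reading there if it exceeded that). Desmin, Des, was at least 5-fold higher in basal cells (adjusted p 0.000175). The myosin phosphatase inhibitor Ppp1r14a, well above background on 2 of the 3 basal arrays, was at least 1.93-fold higher (adjusted p 0.0195). Actc1 and Lmod1 did not pass the filter. For Tpm1, which differed by 2.46, the other probes ranged down to -0.02, so its value holds for the brightest probe. The call of Ppp1r14a was lost without luminal shROR2 replicate 1 (adjusted p 0.108) and without luminal shROR2 replicate 2 (adjusted p 0.0902).

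**Figure D1:**
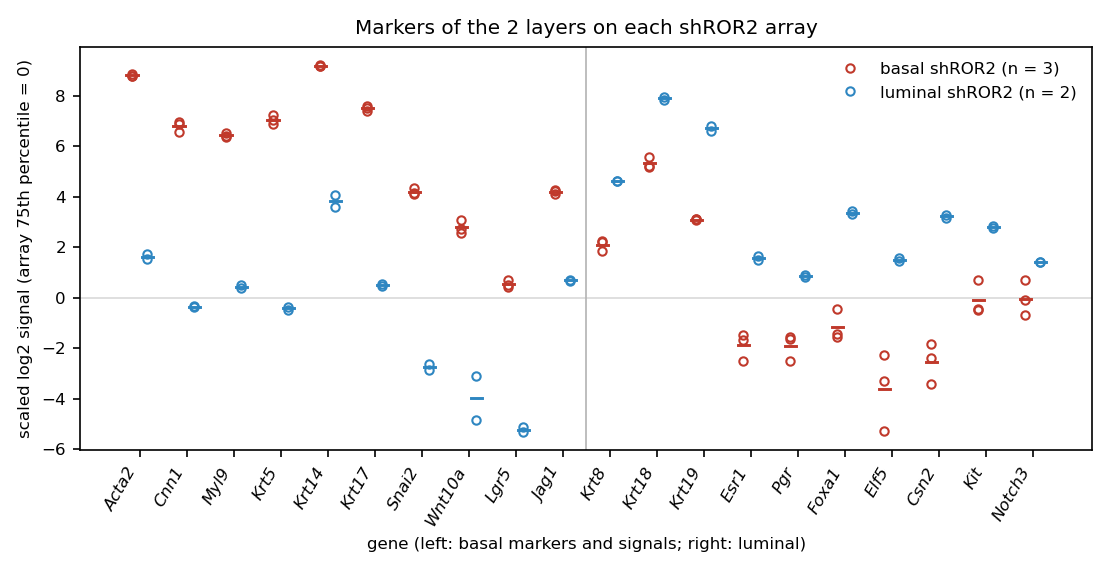
Log2 signal relative to the array's 75th percentile for single marker genes on each shROR2 array, with basal arrays left of luminal arrays and a bar at the group mean. Basal markers such as Acta2 and Krt5 and luminal markers such as Krt8 and Csn2 separate the arrays with no overlap.

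Smooth-muscle genes are known to be driven by serum response factor, which binds the CArG box. The promoters of the contractile genes were therefore searched for this box on both strands. The RefSeq window ran from 250 bases before to 50 after each gene's start (build GRCm38.p6). The search took the strict consensus only, a fixed run of A or T between CC and GG, with no mismatch. Of 19 contractile genes with a promoter entry, 4 held a match (Actc1, Cnn2, Myl6 and Myl9), in 4 of 22 promoters or 18.2%, against 535 of 32851 promoters or 1.63% in the whole table. The windows of 2 called members are shown with the CArG box in capitals, each read on the strand of the gene, because their genes differ most between the layers among those with a match. The Myl9 window is at chr2:156775268-156775347 on the plus strand, with the box 161 bases before the start, and the Cnn2 window at chr10:79988509-79988588 on the plus strand, 56 bases before the start.
Myl9: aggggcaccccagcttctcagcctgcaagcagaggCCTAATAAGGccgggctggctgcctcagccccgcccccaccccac
Cnn2: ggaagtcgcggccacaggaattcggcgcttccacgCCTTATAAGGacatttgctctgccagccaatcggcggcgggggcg
No match lay in the windows of Acta2, Cnn1 or Mylk, and Actg2, Tagln and Myh11 had no entry. Boxes with a mismatch or outside the window were not searched for, so genes without a match may still hold such a box. A match describes letters in a window and is no binding site. Among promoters of named genes, 2.39% of those called higher, 1.15% of those called lower and 1.35% of those not called held the box.

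Genes that respond to serum response factor and to the mechanical co-activators YAP and TAZ were more often called higher than lower in basal cells. Of 18 listed genes, 15 passed, with 9 higher, 1 lower and a median difference of 0.99, and 10 higher and 2 lower without basal shROR2 replicate 2. Axl, a receptor tyrosine kinase, was higher by 3.02 ± 0.20 (adjusted p 1.07e-05), the matrix protein gene Thbs1 by 2.76 ± 0.12 and the matricellular Ccn2 by 2.07 ± 0.17. The related Ccn1 was the only member called lower, reading 5.78, 5.73 and 5.79 in basal and 6.85 and 6.68 in luminal cells (-1.0 ± 0.11, adjusted p 0.000273). The LIM-domain gene Fhl2 was higher by 2.14 ± 0.13 and vinculin, Vcl, which links integrins to actin, by 0.99 ± 0.12. Their promoters also held the CArG box and are shown for that reason, Fhl2 at chr1:43163962-43164027 on the minus strand, 31 bases before the start, and Vcl at chr14:20929148-20929215 on the plus strand, 227 bases before the start.
Fhl2: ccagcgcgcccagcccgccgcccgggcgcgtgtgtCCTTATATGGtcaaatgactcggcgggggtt
Vcl: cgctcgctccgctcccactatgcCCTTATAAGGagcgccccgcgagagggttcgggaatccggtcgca
In this list 3 of the 14 genes with an entry, Fhl1, Fhl2 and Vcl, held the box (4 of 19 promoters, 21.1%). Fhl1 was not among the features tested. The list was drawn up from known targets of serum response factor and YAP, so a high share can follow from that choice and is no finding.

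Basal keratins and adhesion proteins of stratified epithelium were mostly higher in basal cells, with 13 of 18 members called higher, 2 called lower and a median difference of 2.19. Krt5 and Krt14, the keratin pair of basal epithelial cells, both separated the layers. Krt5 read 6.88, 7.23 and 7.05 in basal against -0.36 and -0.48 in luminal cells, a difference of 7.47 ± 0.15 (adjusted p 2.42e-08). Krt14 read 9.21, 9.19 and 9.18 in basal against 4.06 and 3.60 in luminal cells and differed by 5.36 ± 0.14. For both, the lowest basal array lay far above the highest luminal one. Krt17 was higher by 7.0 ± 0.19, Krt15 by 3.13 ± 0.19 and Krt16 by 1.56 ± 0.16. The P-cadherin gene Cdh3, the classical cadherin of myoepithelium, was not well above background on either luminal array and was at least 212-fold higher in basal cells, the largest bound among the named genes.

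The hemidesmosomal collagen Col17a1, which anchors basal cells to their matrix, was higher by 5.85 ± 0.35 (adjusted p 5.57e-06). The desmosomal plakophilin Pkp1 was higher by 3.71 ± 0.14 and Lgals7, a galectin of stratified epithelia, by 3.56 ± 0.27. Krt6a and Krt6b, stress-inducible keratins, ran against the list. Krt6a read -1.92, -0.94 and -2.10 in basal and 0.22 and -0.01 in luminal cells, a difference of -1.76 ± 0.30 (adjusted p 0.00316), and Krt6b differed by -1.37 ± 0.22 (adjusted p 0.00238). The sequences of these 2 keratins are near-identical, and whether their probes share signal was not tested. The remaining 3 members were not called.

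Transcription factors of the basal lineage were less uniform. Of 20 listed, 19 passed, with 10 higher, 2 lower and a median difference of 0.67. Snai2, the zinc-finger factor Slug, which holds cells in the basal state, read 4.13, 4.35 and 4.12 in basal against -2.87 and -2.62 in luminal cells and differed by 6.94 ± 0.15 (adjusted p 3.51e-08). Irx4 was higher by 3.91 ± 0.28, Egr2 by 3.28 ± 0.14 and Nfix by 1.69 ± 0.12. Id4, an inhibitor of helix-loop-helix factors found in mammary stem cells, was at least 25.8-fold higher, Runx2 at least 4.34-fold and Twist1 at least 1.55-fold. Sox10 differed by -1.17 ± 0.29 (adjusted p 0.0193) and Barx2 by -1.50 ± 0.28 (adjusted p 0.00444), both lower in basal cells. The call of Barx2 was lost without luminal shROR2 replicate 1 (adjusted p 0.0519). The call of Runx2 was lost without luminal shROR2 replicate 2 (adjusted p 0.051). The call of Sox10 was lost without luminal shROR2 replicate 1 (adjusted p 0.129) and without luminal shROR2 replicate 2 (adjusted p 0.0701).

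Trp63, which encodes the master regulator of basal epithelium, gave different answers from its 2 probes. The brighter one, which the rule for genes with several probes takes, read 6.73, 6.85 and 6.80 in basal and 6.58 and 6.55 in luminal cells and was not called (0.23 ± 0.11, adjusted p 0.169). The other read 2.55, 2.63 and 2.84 on the basal arrays and -2.65 and -5.29 on the luminal arrays, a difference of 6.64 ± 0.78 (adjusted p 0.000352 with every probe as a feature), and was well above background on 1 of the 2 luminal arrays. Which transcripts each probe reads was not tested. Sox9, at -0.05 (adjusted p 0.759), did not pass the test.

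Basement membrane genes and the integrins that bind it were higher in basal cells, with 24 of the 30 members that passed called higher and 1 called lower, of 31 listed, and a median difference of 2.28. The chains of collagen IV, the network former, led: Col4a2 differed by 4.68 ± 0.16 (adjusted p 3.19e-07) and Col4a1 by 4.43 ± 0.17. Sparc, a secreted collagen-binding protein, read 6.32, 6.33 and 6.12 in basal against 1.01 and 1.17 in luminal cells (5.17 ± 0.13, adjusted p 4.68e-08). The layers lay far apart for both kinds of protein. Col7a1, the anchoring fibril collagen, was higher by 4.21 ± 0.12, and Col18a1 was at least 31.7-fold higher.

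Among laminin chains Lama1 was higher by 4.37, Lama3 by 3.56, Lamb3 by 2.96 and Lamc1 by 2.72. Lama5 went the other way and was the only member called lower (-0.96 ± 0.15, adjusted p 0.00186). The linker nidogen 1, Nid1, was higher by 3.46 and perlecan, Hspg2, by 2.49. Of the receptors, Itga9 was higher by 3.11 ± 0.37 and Itga6, the CD49f antigen, by 1.32 ± 0.11. Itgb1 encodes CD29, on which the cells were sorted. It is among the members counted as higher, and its values are given with the sort markers.

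**Figure D2:**
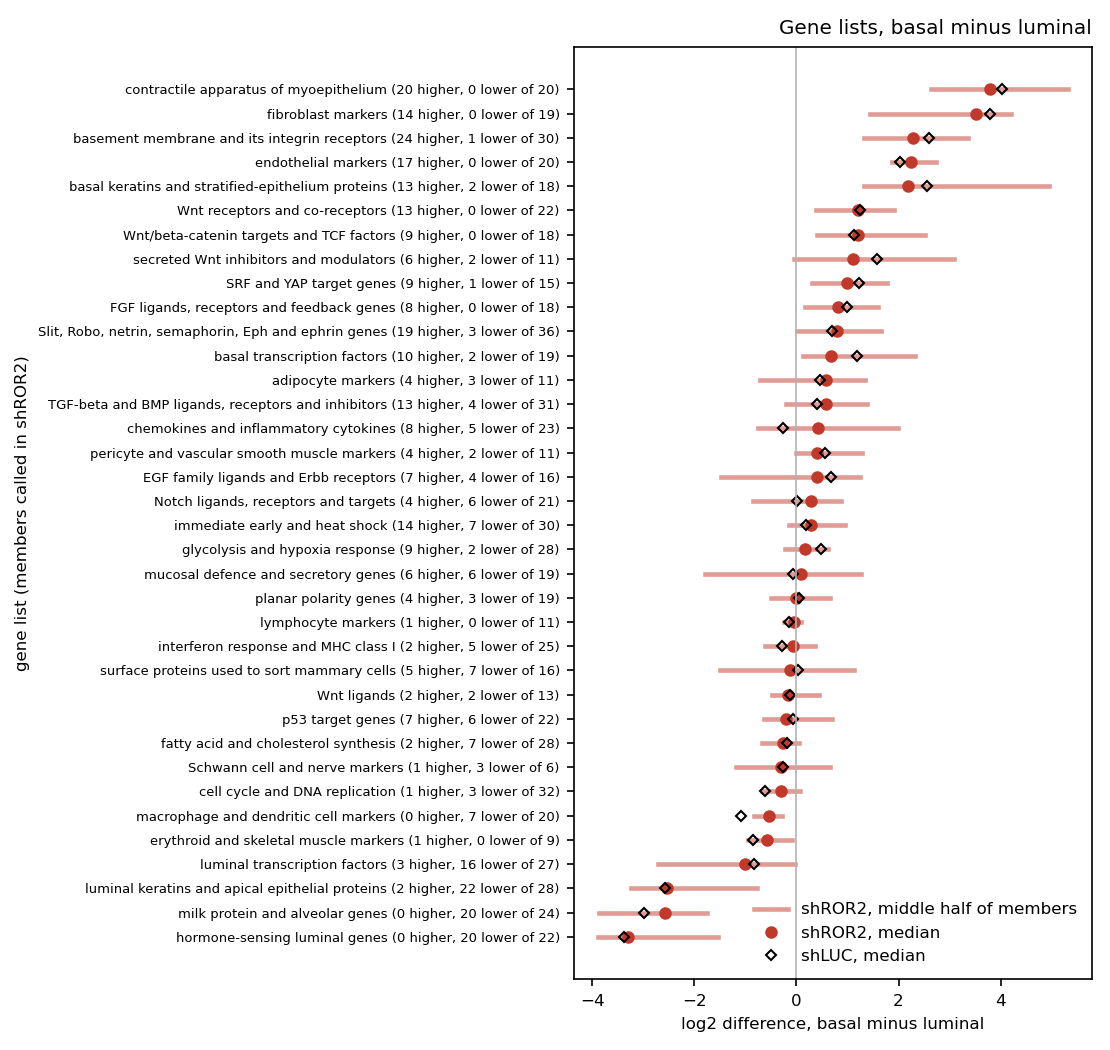
Median log2 difference, basal minus luminal, over the members of each gene list that passed the filter, with shROR2 and shLUC outgrowths side by side. The contractile list stands highest at 3.79 in shROR2 and 4.02 in shLUC outgrowths and the hormone-sensing list lowest at -3.3 and -3.37.

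Keratins and apical proteins of the luminal layer were lower in basal cells, with 22 of 28 members called lower, 2 called higher and a median difference of -2.54. The lower members include Cd24a, which encodes CD24, on which the cells were sorted. Krt8 and Krt18, the keratin pair of simple epithelium, moved alike. Krt8 read 2.24, 2.22 and 1.85 in basal against 4.61 and 4.61 in luminal cells, a difference of -2.50 ± 0.14 (adjusted p 4.71e-06), and Krt18 differed by -2.57 ± 0.14. Krt19 differed by -3.63 ± 0.14 and Krt7 by -2.48 ± 0.28. The basal signal of Krt8 and Krt18 stayed well above background on all 3 basal arrays. The claudins, which form the strands of tight junctions, were lower in basal cells. Cldn3 differed by -3.23 ± 0.16, Cldn4 by -2.94 ± 0.24 and Cldn7 by -2.61 ± 0.15. For Cldn8 and Cldn1 no basal array was well above background, and both were lower in basal cells, at least 7.87-fold and at least 5.46-fold.

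Marveld2, tricellulin, which seals the corners where 3 cells meet, read -1.69, -3.41 and -2.28 in basal against 1.62 and 1.54 in luminal cells (-4.04 ± 0.41, adjusted p 0.00016). Occludin, Ocln, differed by -2.34 ± 0.41, cingulin, Cgn, by -3.43 ± 0.55 and the junction scaffold Tjp3 by -3.10 ± 0.23, whereas the scaffold Tjp1, at 0.06, was not called. The apical mucin Muc1 differed by -3.17 ± 0.67, the adhesion protein Epcam by -1.34 ± 0.20 and E-cadherin, Cdh1, by -0.94 ± 0.14 (adjusted p 0.00116). Against the list, Krt23 was higher in basal cells by 3.64 ± 0.20 (adjusted p 3.76e-06), and Krt20 was at least 2.66-fold higher. Ezr, a linker of microvilli to actin, differed by -0.83 ± 0.13. The call of Krt20 was lost without luminal shROR2 replicate 1 (adjusted p 0.0871) and without luminal shROR2 replicate 2 (adjusted p 0.0581). The call of Muc1 was lost without luminal shROR2 replicate 1 (adjusted p 0.0517) and without luminal shROR2 replicate 2 (adjusted p 0.0669).

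Of 30 transcription factors tied to luminal fate, 27 passed, with 16 lower, 3 higher and a median difference of -1.01. Foxa1, the pioneer factor that opens chromatin for the estrogen receptor, read -1.43, -1.56 and -0.45 in basal against 3.44 and 3.30 in luminal cells, a difference of -4.52 ± 0.40 (adjusted p 6.34e-05). Elf5, which drives alveolar cells, read -3.31, -5.27 and -2.26 in basal against 1.57 and 1.45 in luminal cells and differed by -5.12 ± 0.69 (adjusted p 0.000786), with 1 of the 3 basal arrays well above background. The basal readings of Elf5 scatter over several log2 units, near background, and all lie below the luminal ones. Cited1 differed by -4.15 ± 0.20, Ehf by -3.16 ± 0.15 and Grhl1 by -2.67 ± 0.21. Gata3, which luminal cells require, showed a small difference, -0.55 ± 0.14 (adjusted p 0.0232). Tfap2c (1.18 ± 0.12), Cebpb (0.84 ± 0.13) and Foxp1 (0.77 ± 0.19) were higher in basal cells. The call of Foxp1 was lost without luminal shROR2 replicate 1 (adjusted p 0.115) and without luminal shROR2 replicate 2 (adjusted p 0.0678). The call of Gata3 was lost without luminal shROR2 replicate 1 (adjusted p 0.0758) and without luminal shROR2 replicate 2 (adjusted p 0.149).

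Genes of the hormone-sensing luminal cells were lower in basal cells, with 20 called lower and 0 higher of the 22 that passed, of 23 listed, and a median difference of -3.3. Without basal shROR2 replicate 2 the counts were 19 lower and 1 higher. Esr1, the estrogen receptor, read -1.69, -1.47 and -2.51 in basal against 1.49 and 1.67 in luminal cells, a difference of -3.47 ± 0.30 (adjusted p 5.67e-05). Pgr, the progesterone receptor, read -1.54, -2.51 and -1.64 in basal against 0.82 and 0.90 in luminal cells and differed by -2.76 ± 0.32, and Prlr, the prolactin receptor, differed by -3.59 ± 0.28. The receptors for all 3 hormones were thus lower in basal cells. Their known targets and companions followed. Areg, the EGF-family ligand that carries the estrogen signal, differed by -3.13 ± 0.20, the calcitonin gene Calca by -4.97 ± 0.44, Ly6d by -3.50 ± 0.20 and the sodium pump subunit Fxyd2 by -4.02 ± 0.36. Wnt4, the ligand that acts below progesterone, read -2.42, -2.39 and -1.67 in basal against -1.05 and -0.67 in luminal cells (-1.30 ± 0.24, adjusted p 0.00443).

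Milk protein and alveolar genes were also lower in basal cells, 20 of 24 called lower and 0 higher, with a median difference of -2.58, and 21 and 1 without basal shROR2 replicate 2. Csn2, beta-casein, read -3.41, -1.85 and -2.40 in basal against 3.29 and 3.17 in luminal cells and differed by -5.78 ± 0.41 (adjusted p 1.8e-05), the largest difference in the luminal direction among named genes measured in both groups. Csn1s1 differed by -4.32 ± 0.28, alpha-lactalbumin, Lalba, by -3.90 ± 0.28 and whey acidic protein, Wap, by -2.45 ± 0.57. Another casein gene, Csn1s2a, differed by -5.41, and whether its near relative Csn1s2b shares its signal was not tested. Kappa-casein, Csn3, was at least 3.51-fold lower. Markers of luminal progenitors and alveolar cells moved the same way. Kit, a receptor tyrosine kinase of luminal progenitors, differed by -2.87 ± 0.32, Aldh1a3 by -2.27 ± 0.35, Cd14 by -2.12 ± 0.16, osteopontin, Spp1, by -4.54 ± 0.30 and lactoferrin, Ltf, by -2.66 ± 0.46. The remaining 4 members were not called. The call of Wap was lost without luminal shROR2 replicate 1 (adjusted p 0.111).

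Genes of mucosal defence did not run one way: of 24 listed 19 passed, with 6 higher, 6 lower and a median difference of 0.09. Slpi, a protease inhibitor of secretions, was higher in basal cells by 3.35 ± 0.11 (adjusted p 2.03e-07) and Chil1 by 2.27 ± 0.12. Dmbt1 (-3.97 ± 0.76, adjusted p 0.00557), Wfdc18 (-2.67 ± 0.14) and Wfdc2 (-2.65 ± 0.25) were lower. Lcn2, at 0.24, and the immunoglobulin receptor Pigr, at 0.27, were not called.

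The Wnt genes, the pathway in which Ror2 acts, are given by role. Of 18 Wnt ligands 13 passed, with 2 higher and 2 lower in basal cells. The share of ligands called was near that of all named genes. Wnt10a read 3.07, 2.73 and 2.57 in basal against -3.11 and -4.84 in luminal cells, a difference of 6.77 ± 0.80 (adjusted p 0.000378), with 1 of the 2 luminal arrays well above background. It was the ligand with the widest gap. Wnt11 was higher by 0.73 ± 0.15 (adjusted p 0.00787). Wnt5b, a non-canonical ligand, differed by -1.50 ± 0.24 (adjusted p 0.002), in the same direction as Wnt4. Wnt5a, the best known ligand of Ror2, read 4.08, 3.83 and 4.24 in basal and 4.11 and 4.10 in luminal cells and was not called (-0.06 ± 0.14, adjusted p 0.813). Its basal and luminal arrays overlapped. The call of Wnt11 was lost without luminal shROR2 replicate 1 (adjusted p 0.0835).

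Receptors and co-receptors had 13 called higher and 0 lower of the 22 that passed, of 23 listed, with a median difference of 1.21. Without basal shROR2 replicate 2 they had 14 higher and 1 lower. Among frizzleds, the Wnt receptors proper, Fzd7 read 2.01, 1.30 and 1.88 in basal against -0.43 and -0.78 in luminal cells and differed by 2.33 ± 0.22 (adjusted p 0.000107) and Fzd1 by 1.45 ± 0.13. Fzd9 was at least 2.52-fold higher. The other receptors of the non-canonical branch were higher as well: Ror1, the paralog of Ror2, differed by 1.78 ± 0.18 (adjusted p 0.000135), the kinase-dead Ptk7 by 1.18 ± 0.12, and Ryk was at least 2.85-fold higher. The R-spondin receptors, which amplify Wnt signals, were higher too. Lgr5, a stem cell marker in several epithelia, had a bound of 13.1-fold (adjusted p 3.65e-08) and Lgr4 differed by 2.33 ± 0.13. The co-receptor Lrp6, at 0.61 (adjusted p 0.0862), was not called.

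Secreted inhibitors and modulators split. Of 20 listed 11 passed, with 6 higher, 2 lower and a median difference of 1.1, and the median was -0.02 over the genes well above background on all 11 arrays. Wif1, which binds Wnt proteins, read 1.98, 1.92 and 2.22 in basal cells and was not well above background in luminal cells, at least 37.2-fold apart (adjusted p 1.75e-08). Sostdc1 was at least 16.2-fold and Sfrp1 at least 3.21-fold higher in basal cells, and Dkk3 differed by 4.24 ± 0.66. Rspo1, an activating R-spondin of luminal cells, was lower in basal cells (-2.86 ± 0.41, adjusted p 0.00113), and so was Dkkl1 (-1.76 ± 0.19). The R-spondin ligand was thus lower, and the receptors Lgr4 and Lgr5 higher, in basal cells. The call of Sfrp1 was lost without luminal shROR2 replicate 2 (adjusted p 0.0999).

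Targets of beta-catenin and TCF factors were called higher in 9 of the 18 that passed, of 21 listed, and lower in 0 (1 without basal shROR2 replicate 1), with a median difference of 1.2. Axin2, the standard reporter gene of the branch, was at least 2.61-fold higher (adjusted p 0.00751), Nkd1 at least 9.86-fold and Ccn4 at least 9.63-fold. Tcf7 differed by 2.63 ± 0.24 and Tcf7l1 by 1.65 ± 0.19, and Procr, a marker of a multipotent basal fraction, by 2.22 ± 0.22. Ccnd1, at -0.47 (adjusted p 0.0658), was not called. Planar polarity genes showed 4 higher and 3 lower of 19 that passed, with a median difference of -0.01, a share called little above that of all named genes. With median scaling the counts were 4 and 1, with only the 5 shROR2 arrays in the fit 4 and 0, and 0 were lower when either luminal shROR2 array was left out. Prickle1 was higher by 1.64 ± 0.19 (adjusted p 0.000345), Dact1 at least 9.02-fold and the formin Daam2 at least 5.29-fold. The core genes Vangl1 (-0.36, adjusted p 0.235) and Vangl2 (-0.49, adjusted p 0.261) were not called. The call of Axin2 was lost without luminal shROR2 replicate 1 (adjusted p 0.0797).

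**Figure D3:**
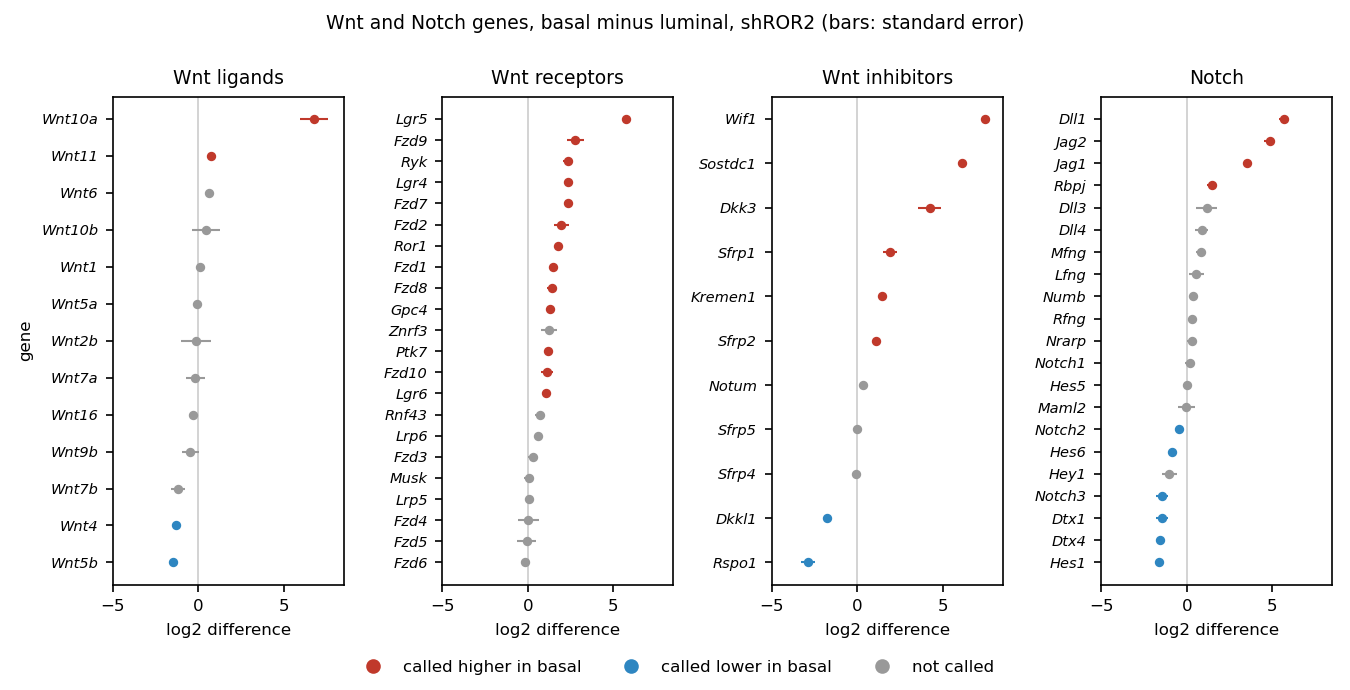
Log2 difference, basal minus luminal, in shROR2 outgrowths for Wnt and Notch genes that passed the filter, with bars for the standard error, red points for genes called higher in basal cells, blue for lower and grey for not called. Genes not well above background in one layer stand at their fitted difference, which is no bound. Lgr5, Wif1 and Wnt10a lie far to the basal side and Rspo1 to the luminal side.

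Notch genes were called in both directions. Of 24 listed 21 passed, with 4 higher, 6 lower and a median difference of 0.29. Without luminal shROR2 replicate 1 or 2 the lower ones numbered 3 and 2. Of the higher ones 3 were ligands. Jag1 read 4.25, 4.11 and 4.21 in basal against 0.66 and 0.71 in luminal cells and differed by 3.51 ± 0.18 (adjusted p 2.24e-06), and Dll1 and Jag2 were not well above background in luminal cells, with bounds of 24.2-fold and 11.3-fold. Rbpj, the DNA-binding partner of all Notch receptors, differed by 1.48 ± 0.30. On the luminal side were the receptor Notch3 (-1.46 ± 0.35, adjusted p 0.0159) and the targets Hes1 (-1.64 ± 0.14, adjusted p 4.26e-05) and Dtx4 (-1.56 ± 0.24). The call of Notch3 was lost without luminal shROR2 replicate 1 (adjusted p 0.0904) and without luminal shROR2 replicate 2 (adjusted p 0.0825). The call of Rbpj was lost without luminal shROR2 replicate 2 (adjusted p 0.0562).

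In the EGF family 7 of 16 members were higher and 4 lower. Of the ligands, Nrg1 was higher in basal cells (4.09 ± 0.50, adjusted p 0.000445), Ereg was at least 12.7-fold higher, and Areg was lower. The receptors parted by member. Egfr differed by 1.02 ± 0.19, in the basal direction. Erbb3, the kinase-impaired receptor for neuregulins, differed by -3.92 ± 0.74 (adjusted p 0.00495) and Erbb2 by -1.87 ± 0.34, both lower, and Erbb4 was at least 3.01-fold lower. The FGF group had 8 higher and 0 lower (1 without basal shROR2 replicate 3) of the 18 that passed, with a median difference of 0.81. The feedback inhibitors Spred1 (1.94 ± 0.28) and Spry1 (1.72 ± 0.21) and the target Etv5 (1.42 ± 0.14) were among the higher ones.

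TGF-beta and BMP genes numbered 13 higher and 4 lower of 31 that passed. Fst, follistatin, an activin trap, read 3.29, 3.17 and 3.15 in basal against -2.07 and -1.88 in luminal cells (5.18 ± 0.21, adjusted p 6.72e-07). Fstl1 differed by 4.71 ± 0.14, the co-receptor Tgfbr3 by 4.32 ± 0.22 and the latent-complex protein Ltbp2 by 3.35 ± 0.17, and the ligand Bmp7 was at least 9.04-fold higher. The BMP inhibitor Nog (-1.69 ± 0.17, adjusted p 0.000171) and the activin subunit Inhbb (-1.22 ± 0.14) were lower. Guidance genes of the Slit, netrin, semaphorin and Eph families counted 19 higher and 3 lower of 36. Slit3 was at least 10.1-fold and its receptor Robo1 at least 2.93-fold higher, Ntn4 at least 2.57-fold and Sema5a at least 15.5-fold. Sema3c differed by 3.88 ± 0.21, Sema4d by -1.96 ± 0.31 and the ephrin Efna1 by -1.0 ± 0.14.

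Proliferation genes were mostly not called, with 1 higher and 3 lower of the 32 cell cycle genes that passed and a median difference of -0.31. The higher one was Rrm2, a subunit of ribonucleotide reductase (1.09 ± 0.25, adjusted p 0.0135). The lower ones were Mcm6, a subunit of the replicative helicase (-1.75 ± 0.29, adjusted p 0.00267), Birc5 (-1.46 ± 0.18) and Mki67 (-1.21 ± 0.29). Without basal shROR2 replicate 2 the counts were 2 and 5. Lipogenic genes gave 2 higher and 7 lower of 28, and 0 and 10 without that array. Scd1, a fatty acid desaturase, differed by -2.56 ± 0.14 (adjusted p 3.12e-06), Fdps by -1.59 ± 0.21 and Acly by -1.21 ± 0.13. The share of cell cycle genes called was below the 22.8% of all features and below that of all named genes. The share of lipogenic genes called was above that of all features but near that of all named genes. The call of Mki67 was lost without luminal shROR2 replicate 1 (adjusted p 0.133). The call of Rrm2 was lost without luminal shROR2 replicate 2 (adjusted p 0.103).

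Of 30 immediate early and heat shock genes, which respond to tissue dissociation, 14 were higher and 7 lower. Egr3 (3.61 ± 0.30, adjusted p 4.69e-05) and Hsph1 (1.32 ± 0.18) were higher, and Fos (-1.34 ± 0.11, adjusted p 5.29e-05), Jun (-1.14 ± 0.13) and Klf2 (-1.76 ± 0.22) were lower. Their part in the other differences was not tested. Chemokines and cytokines numbered 8 higher and 5 lower of 23 that passed. Cxcl14 had the widest gap of all named genes measured in both groups, with 6.67, 6.93 and 6.79 in basal against -1.62 and -0.97 in luminal cells (8.09 ± 0.23, adjusted p 9.16e-08). Cxcl12, which attracts leukocytes and progenitors, differed by 4.35 ± 0.13, Csf1, the macrophage growth factor, by 2.75 ± 0.16 and Il6 by 2.39 ± 0.21, while Cxcl15 (-4.34 ± 0.64) and the alarmin Il33 (-2.91 ± 0.23) were lower. Interferon genes showed 2 higher and 5 lower of 25 (4 and 6 without basal shROR2 replicate 2), glycolysis and hypoxia genes 9 higher and 2 lower of 28, and p53 targets 7 higher and 6 lower of 22. The share of interferon genes called was near that of all named genes. In these lists the glycolytic Aldoc was lower (-3.10 ± 0.22, adjusted p 1.62e-05) and the lactate exporter Slc16a3 higher by 1.74 ± 0.25. The p53 target Phlda3 was higher by 3.53 ± 0.18 (adjusted p 2.19e-06) and Trp53inp1 lower (-2.72 ± 0.15).

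Outside the lists, the genes with the largest differences on the basal side were the fatty acid elongase Elovl4 (6.58 ± 0.23), Arhgef39 (6.31 ± 0.66), the gelatinase Mmp2 (6.21 ± 0.46) and the collagen receptor Antxr1 (6.20 ± 0.44), each of the last 3 well above background on 1 of the 2 luminal arrays. Not measured above background in luminal cells were Ecrg4, at least 139-fold higher in basal cells, Spock2, at least 66.5-fold, Serpina3n, at least 61.8-fold, Lmo1, at least 55-fold, Moxd1, at least 44.5-fold, and podoplanin, Pdpn, at least 41-fold. Their adjusted p ranged up to 0.000999, the value of Lmo1. On the luminal side, the homeobox gene Msx2 read 0.35, -3.38 and -1.82 in basal against 3.62 and 3.42 in luminal cells (-5.14 ± 0.91, adjusted p 0.00353). The basal arrays of Msx2 spread over more than 3 log2 units and all lay below the luminal ones. Bcl2l14 differed by -4.87 ± 0.43, Ctsj by -5.02 ± 0.79, Esm1 by -4.88 ± 0.75, Wfdc12 by -4.87 ± 0.73 and Acsbg1 by -4.70 ± 0.63, the last 4 with 1 basal array well above background. Crym (-4.66 ± 1.24, adjusted p 0.0255) and Bex1 (-4.55 ± 1.24, adjusted p 0.0287) had wider errors. The angiotensin receptor gene Agtr1a was at least 16.2-fold lower in basal cells, the lectin Reg3g at least 14.6-fold, Mal at least 12.9-fold, the desmosomal plakophilin Pkp2 at least 12.7-fold, Ceacam10 at least 12-fold, Mpzl3 at least 10.7-fold, Cyp3a59 at least 10.6-fold and melanophilin, Mlph, at least 9.71-fold. Pkp1 and Pkp2, members of 1 desmosomal family, thus differed in opposite directions. The call of Bex1 was lost without luminal shROR2 replicate 1 (adjusted p 0.139) and without luminal shROR2 replicate 2 (adjusted p 0.114). The call of Crym was lost without basal shROR2 replicate 3 (adjusted p 0.0568), without luminal shROR2 replicate 1 (adjusted p 0.125) and without luminal shROR2 replicate 2 (adjusted p 0.11).

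The surface proteins behind the sort were as the gate selects them, which is no finding. Cd24a, which encodes CD24, read 4.67, 4.79 and 4.71 in basal and 5.25 and 5.25 in luminal cells, and Itgb1, which encodes CD29, read 3.17, 3.8 and 2.94 in basal and 2.23 and 2.12 in luminal cells. The differences were -0.53 and 1.13, and the other probe of Itgb1 differed by 1.59. Of 16 genes for surface proteins used on mammary cells 5 were higher and 7 lower in basal cells, these 2 included. Thy1, CD90, was higher by 2.71 ± 0.34, and Anpep, CD13, was lower (-1.74 ± 0.24). The call of Itgb1 was lost without luminal shROR2 replicate 2 (adjusted p 0.0567).

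Markers of cells other than epithelium were also compared, since the gate was set on CD24 and CD29 and the labels name no marker used to remove stromal cells. In bulk samples fewer cells of a type and less RNA per cell cannot be told apart. Of 22 fibroblast markers 19 passed, 14 were higher and 0 lower in basal cells, and the median difference was 3.51. Their summed linear signal was 105, 126 and 124 in basal shROR2 and 16.7 and 17.9 in luminal shROR2 cells, beside 115, 106 and 111 in basal shLUC and 11.4, 11.1 and 11 in luminal shLUC cells. Col1a1, which encodes a chain of collagen I, differed by 3.93 ± 0.28 (adjusted p 1.7e-05), Col3a1 by 3.30 ± 0.26, Col5a1 by 5.50 ± 0.37 and Serpinf1 by 4.21 ± 0.28. Postn was at least 28.9-fold, Col14a1 at least 21.1-fold, Fbn1 at least 19-fold and Lum at least 14.6-fold higher. Pdgfra, a defining fibroblast receptor, was well above background on none of the 5 shROR2 arrays, and Dcn (0.44, adjusted p 0.0581) was not called.

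Endothelial markers were higher in 17 of 20 genes and lower in 0, with a median difference of 2.25. Their summed signal was 61.1, 70.2 and 71.3 in basal shROR2 and 20 and 21.2 in luminal shROR2 cells, beside 36.3, 30.6 and 38.9 in basal shLUC and 15.4, 15.2 and 15.5 in luminal shLUC cells. Pecam1, CD31, read 1.64, 1.73 and 0.43 in basal against -1.04 and -0.46 in luminal cells (2.02 ± 0.36, adjusted p 0.00373). VE-cadherin, Cdh5, differed by 2.38 ± 0.42 and Plvap by 2.67 ± 0.26, and Sox17 was at least 5.79-fold higher. The pericyte list gave 4 higher and 2 lower of 11, with Pdgfrb at least 5-fold and Rgs5 (1.85 ± 0.23) higher and Trpc6 (-3.74 ± 0.45) lower. Adipocyte markers gave 4 higher and 3 lower of 11 that passed, with a summed signal of 60, 75 and 60.6 in basal shROR2 and 33.2 and 35.6 in luminal shROR2 cells. Most of the basal sum was that of the fatty acid carrier Fabp4 (2.04 ± 0.16, adjusted p 2.71e-05). Without it the sums were 16.9, 21.4 and 16.6 in basal shROR2 and 22.7 and 23.2 in luminal shROR2 cells. Adipoq, the defining adipokine, did not pass the filter.

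Macrophage and dendritic cell markers had 0 higher and 7 lower in basal cells of 20 that passed, with a median difference of -0.53. The lower ones numbered 1 with only the 5 shROR2 arrays in the fit, and 2 when either luminal shROR2 array was left out. Their summed signal, 574, 576 and 582 in basal shROR2 and 582 and 607 in luminal shROR2 cells, was mostly that of 1 bright probe for Itgam, an integrin of myeloid cells, which read 8.83, 8.80 and 8.80 in basal and 8.70 and 8.79 in luminal cells and was not called. Without Itgam the sums were 121, 131 and 136 in basal shROR2 and 166 and 165 in luminal shROR2 cells, every basal array below both luminal arrays. The sums without the brightest member were chosen after seeing the data. Lyz2 (-1.47 ± 0.22, adjusted p 0.00136) was among the lower ones. Of lymphocyte markers 11 passed and 1 was called, Gzma, a protease of cytotoxic cells (1.14 ± 0.34, adjusted p 0.0425), and of erythroid and skeletal muscle markers 9 passed and Acta1 alone was called. Schwann cell markers gave 1 higher and 3 lower of 6, the higher one being Ngfr (4.03 ± 0.61, adjusted p 0.00157), which basal mammary cells also express. The lower ones include Sox10 and Erbb3, which are also counted above among the basal transcription factors and the EGF family. The collagens and vessel genes above move with the basal label, and their part in the basement membrane, chemokine and guidance differences was not tested. The call of Gzma was lost in 8 of the 11 fits that each left out 1 array (adjusted p 0.052 to 0.304).

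**Figure D4:**
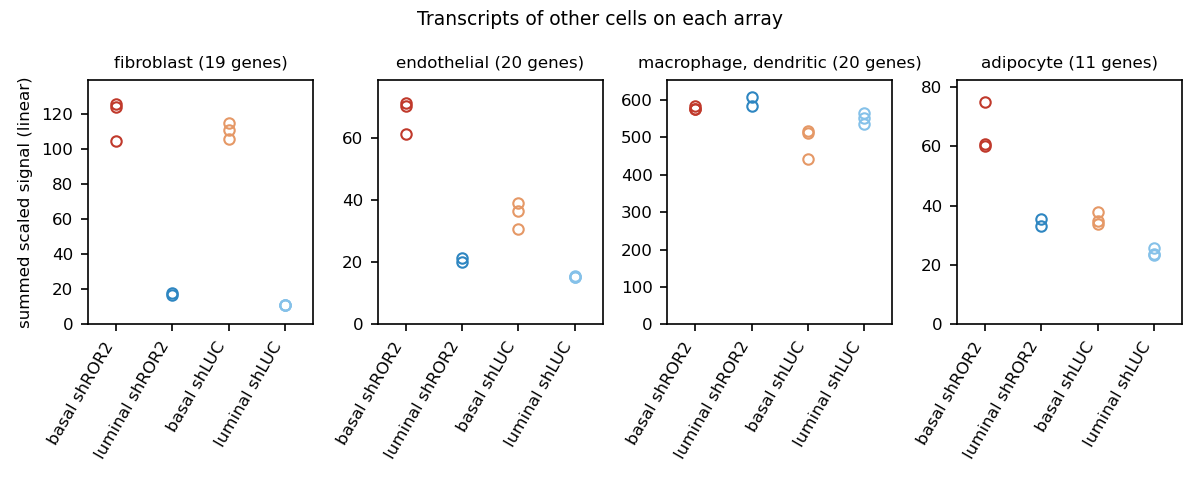
Summed linear signal, relative to the array's 75th percentile, of markers of fibroblasts, endothelium, macrophages and adipocytes on each array, with 1 point per array. Fibroblast and endothelial sums are higher on every basal array than on every luminal array, at 105 to 126 and 61.1 to 71.3 in basal shROR2 cells. Itgam holds most of the macrophage sum, and Fabp4 most of the adipocyte sum in basal shROR2 cells.

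The comparison of the layers in shLUC outgrowths, which shares no array with that in shROR2 outgrowths, is given beside it. Both came from the same fit, with a shared estimate of each feature's spread, so their calls are not independent. Of the shROR2 calls, 5016 were also called in the same direction in shLUC outgrowths, 74.6% of the shROR2 calls and 63.2% of the shLUC calls. Among named genes the shares were 78.3% and 69.7%. Across the 14069 named genes the shROR2 and shLUC differences correlated at 0.892, with a slope of 0.876, as a description over genes that share arrays and probes and are not replicates. Contractile genes had a median of 3.79 in shROR2 and 4.02 in shLUC outgrowths, basement membrane genes 2.28 and 2.6, milk genes -2.58 and -2.98, and hormone-sensing genes -3.3 and -3.37. Fibroblast markers stood at 3.51 and 3.8 and endothelial markers at 2.25 and 2.03.

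**Figure D5:**
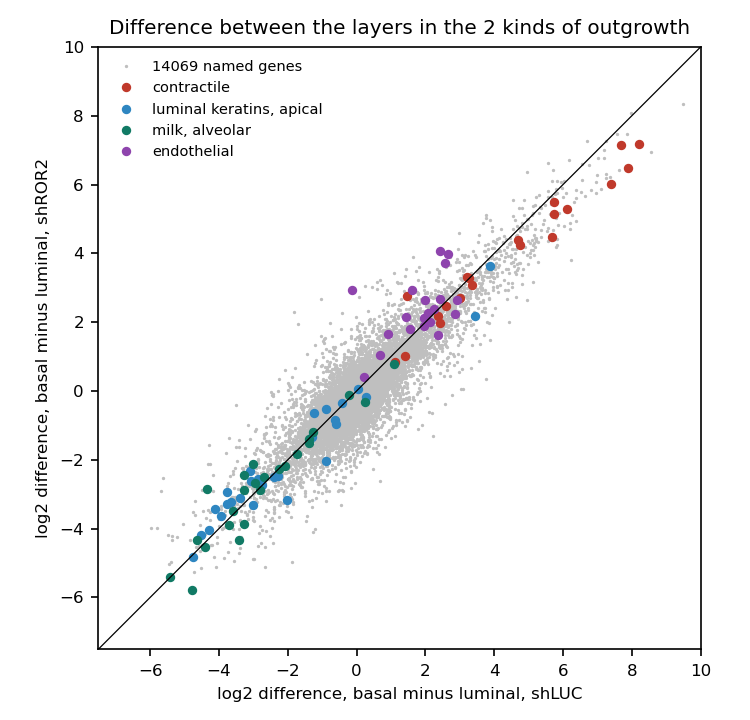
Log2 difference, basal minus luminal, of each named gene in shROR2 outgrowths against the same in shLUC outgrowths, with the line of equality. The points follow the line with a correlation of 0.892 over genes, with contractile genes in red at the basal end and luminal keratin and milk genes in blue and green mostly below 0 on both axes.

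The test of the difference between the hairpins called 0 of 29430 features by limma in either direction (0%), with 2440 at an unadjusted p under 0.05. Chosen by smallest p, the named genes nearest to a call were Optc, Mmrn1, Nkain3, Ecel1 and Snai2, and none passed the threshold. Optc (difference of the differences -2.90 ± 0.27, adjusted p 0.0594) and Nkain3 (-2.98 ± 0.35, adjusted p 0.0891) were not well above background on any shROR2 array, and read higher in basal than luminal cells in shLUC outgrowths only, by 2.78 and 3.04. Both passed the filter through shLUC arrays only. Their values thus set signal in shLUC cells against readings near background, and their sizes and p-values carry little weight. Mmrn1, an endothelial and platelet matrix protein, read -2.09, -2.49 and -1.85 in basal shROR2 cells and was not well above background in luminal shROR2 cells, at least 2.05-fold apart, while its shLUC difference was -0.13 (3.07 ± 0.31, adjusted p 0.0665). Ecel1 was at least 8.54-fold higher in basal shROR2 cells, and the differences of the layers differed by -2.43 ± 0.29 (adjusted p 0.0891). Snai2 differed between the layers by 6.94 in shROR2 and by 8.57 in shLUC outgrowths (-1.63 ± 0.21, adjusted p 0.0891). These are values short of the threshold. Mmrn1 is a member of the endothelial list, whose sums were higher in basal than in luminal cells in both kinds of outgrowth. The basal sums were 61.1, 70.2 and 71.3 in shROR2 and 36.3, 30.6 and 38.9 in shLUC outgrowths. The part of endothelial RNA in the values of Mmrn1 was not tested.

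Only 8 features were called in opposite directions in the 2 kinds of outgrowth. Of the named ones, which were chosen after their values were seen, Apod, a lipid-binding secreted protein, read 3.74, 4.49 and 4.59 in basal and 5.18 and 5.41 in luminal shROR2 cells, a difference of -1.02 ± 0.27, beside 1.07 in shLUC outgrowths. The difference between the hairpins did not pass for it (-2.09 ± 0.36, adjusted p 0.22). Zfr (-0.58 in shROR2 and 0.49 in shLUC outgrowths), Lmbrd1 (-0.56 and 0.68) and Phf11b (0.63 and -0.49) were the other 3, with adjusted p for the difference between hairpins of 0.23 to 0.272. Leaving out luminal shROR2 replicate 1 ended the calls of Apod, Zfr, Lmbrd1 and Phf11b (adjusted p 0.0662 to 0.239), and so did leaving out replicate 2 (adjusted p 0.091 to 0.188). The call of Lmbrd1 was also lost without each basal shROR2 array in turn (adjusted p 0.0587 to 0.0802), without basal shLUC replicate 1 and without luminal shLUC replicate 2 or 3, that of Phf11b without basal shROR2 replicate 2 (adjusted p 0.063) and that of Zfr without basal shROR2 replicate 3 (adjusted p 0.0521).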

How the data were processed

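RNA of sorted basal and luminal cells was hybridized to one-colour Agilent mouse arrays. The processed intensity of the deposited files was background-subtracted and detrended by Agilent's Feature Extraction software (version 11.0.1.1), per the file headers, and arrays were not normalized to each other. The authors' table holds intensity values with column medians of 92.042 to 92.833, normalized by a method not given in the sources used here. The log2 of these values was an alternative. They correlated with the raw log2 signal of the same array at 0.9967 to 0.9982, so they are on a linear scale and not centred, and whether a background was subtracted is unknown.

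There were 62976 spots per array, of which 59305 were non-control spots of 55681 probes, and repeated spots were averaged. No spot was saturated, no 2 arrays were identical, and 52.8% to 59.5% of probes lay well above background. Probes were named through RefSeq accessions (mouse GRCm38.p6, names only), which gave 26582 a symbol and 29099 none. Values were log2 processed signal minus the array's 75th percentile. To be tested, a probe had to be well above background on 3 or more of the 11 arrays, which held for 33630, less 18 with a missing value, and of several probes of a gene (3490 genes) the brightest was taken. This left 29430 features.

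With limma 3.58.1 under R 4.3.3, lmFit and eBayes estimated a mean per group over the 11 arrays (4 groups, 1.85 prior degrees of freedom), and p-values were adjusted by Benjamini and Hochberg. The fit was also run on simulated data in which all groups shared the same spread per feature. That run could not check the wider spread among basal shROR2 arrays. Slides hold both groups, and the slide as a block was an alternative, as were scaling, background correction, filters, probe choice, array weights, a replicate block and leaving out each array. The arrays' small number limits the precision. Replicate numbers were checked as pairs through each array's deviations from its group mean. Those of basal and luminal arrays with the same number correlated at -0.09 to 0.047, and those with any 2 numbers at -0.092 to 0.064. The deviations within a group cancel, and those of the 2 luminal shROR2 arrays mirror each other. The check therefore cannot decide whether any arrays came from the same outgrowth.

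The members and gene lists were chosen with earlier results of these data known. Named are the 12 genes with the largest difference each way, the 8 with the largest bound each way, up to 4 of each list by smallest p and members that run against their list, the 5 nearest to a call between hairpins, a fixed set of markers, and examples of a role. Some genes of the lists are counted but not reported here by name.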

Additional observations from a re-analysis of the deposited data

How the results depend on the processing

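Of 244 named genes called in the shROR2 comparison, 203 kept their call and direction under every alternative run, and 41 lost the call under some. With only the 5 shROR2 arrays in the fit, 1604 features were higher and 1224 lower, and 37 named genes were no longer called, among them Wnt4, Wnt5b, Erbb2, Erbb3, Epcam, Cdh1, Pecam1 and Msx2. Over the fits that left out 1 array, higher calls ranged between 2053 and 3366 and lower calls between 1718 and 4183, the fewest without luminal shROR2 replicate 1 (2053 and 1718) or 2 (2060 and 1910), where that group rests on 1 array whose spread is taken from the other groups. Scaling by the median turned the balance, with 3285 higher and 3151 lower, and the authors' table gave 3285 and 4367. Of the 36 gene lists, a count of calls moved by over 1.5 times in 23 with only the shROR2 arrays in the fit, in 14 and 12 without luminal shROR2 replicate 1 and 2, in 4, 8 and 3 without basal shROR2 replicates 1, 2 and 3, and in 1 with median scaling. The medians of the contractile, basement membrane, luminal, hormone-sensing, milk, fibroblast and endothelial lists kept their sign, with the smallest sizes in the authors' table (contractile 2.95, fibroblast 2.03, endothelial 1.05).

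The difference between hairpins, 0 features in the fit reported, gave 1 higher and 6 lower with normexp, 1 and 1 with quantile normalization, 1 lower with median scaling, and 2 and 5 with the authors' table. Leaving out 1 array gave 0 to 2 higher and 0 to 6 lower. The cause was not tested. For Ror2 the difference ranged between -0.25 and 1.09, and turned to -0.2 without basal shROR2 replicate 1 and to -0.25 without luminal shROR2 replicate 1. Wnt5a ranged between -0.15 and 0.05, turning without basal shROR2 replicate 2.

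The replicate block, hairpin by replicate number, called 2550 features higher and 2704 lower and 0 between hairpins, and 8 named genes lost their call, among them Gata3, Sox10 and Cd24a (adjusted p 0.0666). Normexp was run on the median signal, chosen after seeing the data, since the planned mean signal was absent from the data used. Probes of opposite sign occur in 120 of the 1093 called genes with several probes. Genes near background, such as Elf5 and Msx2 in basal cells, have only coarse sizes.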
